A study of Drosophila melanogaster with 12 samples.

Results

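The genes described here make, package, take back or break down the small-molecule transmitters of the fly nervous system. They were chosen by name as 10 members: *ChAT*, *VAChT*, *Ace*, *Gad1*, *ple*, *Ddc*, *Tdc2*, *Tbh*, *Vmat* and *DAT*. All 10 were found in the deposited table, with 25 isoforms among the 30738 isoforms and 13962 genes listed there. RNA came from whole heads of *Drosophila melanogaster* at 10 days of age, with 500 pooled heads behind each library. Males and females were used in equal numbers. Control heads were *elav-Gal4/+* and carried the driver without a *UAS* transgene. Tau heads were *elav-Gal4/+;UAS-tauR406W/+*, in which the same pan-neuronal driver expresses human tau with the R406W change that is found in frontotemporal dementia. Each genotype had 3 direct RNA libraries, and polyadenylated molecules were read through a protein pore without a cDNA copy. The comparison asks whether the transcripts of these genes differ between tau and control heads, in their amount and in the form that is read.

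Acetylcholine is the main fast excitatory transmitter of the insect brain and GABA the main inhibitory one. Dopamine, serotonin, octopamine and tyramine are amines that a small set of neurons release, and they act in arousal, movement, reward and memory. A transmitter is made by enzymes in the cytoplasm and loaded into vesicles by a vesicular transporter. After release it is cleared by an enzyme or by a transporter of the plasma membrane. In the fly the dopamine pathway also serves the cuticle, where dopamine made in the epidermis is used for hardening and pigment.

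Levels are given as TPM, which in these data is the share of a library's assigned reads, scaled to the same total in each library, and is not divided by transcript length, so that the genes are not ranked against each other. Assigned reads ranged from 573001 to 910700 in control libraries and from 684408 to 1329914 in tau libraries. The TPM of 3 reads, used as a detection floor, lay between 2.26 and 5.24. Summed over isoforms, all 60 of 60 member values were whole numbers of reads within 0.01, so read numbers and Poisson 95% intervals are given beside some of them. These intervals cover counting error only. Tau replicate 1 stood apart on the first principal component of all tested genes, with a score of 48.2 against -19.6 to -0.31 in the other libraries, and control replicate 3 was highest on the second, at 38.2. The summed TPM of 8 neuron markers was 755 in tau replicate 1 and between 941 and 1244 in the other libraries, while the defining neuron markers *elav* and *futsch* were at 0 to 2.93 TPM in every library. Most of that sum came from *cpx* and *nSyb*, at 259 and 222 TPM in tau replicate 1 and at 515 and 358 TPM in control replicate 1. In whole heads, fewer cells of a type and less RNA per cell cannot be told apart.

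None of the member genes passed the test between tau and control heads. With limma on log2(TPM + 1) and an adjusted p of 0.05 or less, 0 of the 9 gene sums that averaged at least 5 TPM and 0 of the 14 isoforms that did so were called. Among all tested features, 1.08% of genes (97 of 8960) and 0.758% of isoforms (97 of 12800) were called. At an unadjusted p under 0.05, limma passed 1 member gene, *ple*, against 8.15% of all tested genes, and 0 member isoforms against 8.21% of all tested isoforms. The limma-voom test on the recovered whole reads called 0 member genes and had 1 at an unadjusted p under 0.05. The groups overlapped in all 10 gene sums, where 13.0% of tested genes did not overlap, and in 13 of the 14 isoforms, where 13.4% of tested isoforms did not. The mean was higher in tau in 6 of the 10 gene sums. The median change of the 9 tested genes was 0.09 on the log2 scale, beside -0.04 over all genes, and that of the 14 isoforms was 0.12, beside -0.03 over all isoforms. Both medians moved with single libraries. Without tau replicate 1 they were 0.35 (genes) and 0.39 (isoforms), without tau replicate 2 they were -0.10 and -0.05, and without tau replicate 3 they were -0.050 and 0.01. Leaving out controls 1, 2 and 3 in turn gave 0.13, 0.03 and 0.04 for genes and 0.09, 0.08 and 0.14 for isoforms.

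**Figure D1:**
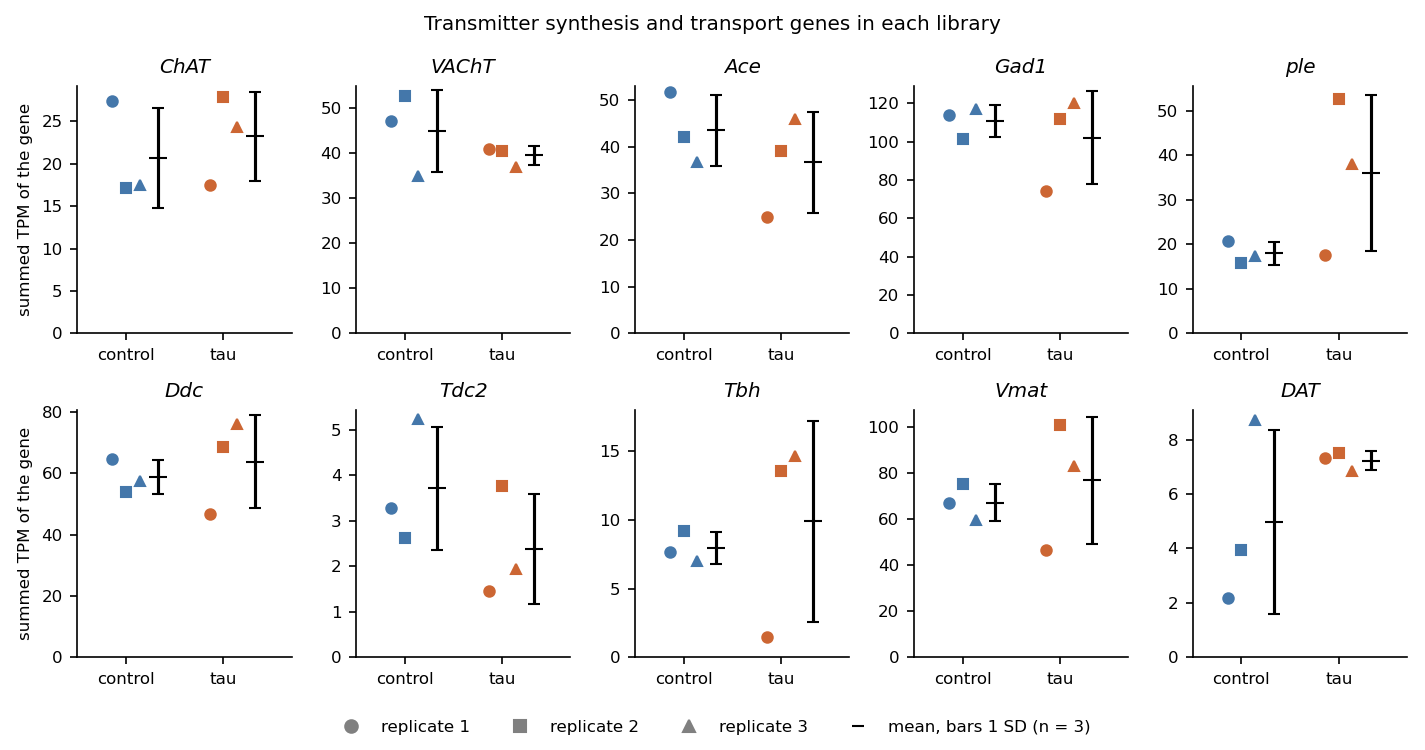
Summed TPM of each of the 10 genes (vertical axes, 1 panel a gene, each starting at 0) in the 3 control and 3 tau libraries, with the replicate number as the symbol and the mean with 1 SD beside the points. Tau replicate 1 is the lowest of the 6 libraries in 6 of the 10 panels, and the groups overlap in every panel.

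*ChAT* (FBgn0000303, 3R 18705501 to 18732344) encodes choline acetyltransferase, which makes acetylcholine. It was at 27.5, 17.1 and 17.5 TPM in controls 1 to 3 and at 17.5, 27.8 and 24.4 TPM in tau 1 to 3. One library of each genotype was near the other genotype's values, and the means were 20.7 ± 5.87 and 23.3 ± 5.24 TPM (SD, n = 3). The log2 change was 0.17, with a 95% interval from -0.48 to 0.82 (limma, adjusted p = 0.96), and it ran from 0.03 without tau replicate 2 to 0.38 without control replicate 1. Nearly all of it was the isoform *ChAT-RA*, while *ChAT-RB*, which has a different 3′ end, had 1 read in control replicate 2 and was at 0 in the other libraries.

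*VAChT* (FBgn0270928, 3R 18705501 to 18718916) encodes the vesicular acetylcholine transporter and lies within the *ChAT* locus. The 2 genes share their first exon, 606 nt long (3R 18705501 to 18706106), an arrangement known as the cholinergic locus. *VAChT* was at 47.2, 52.6 and 34.9 TPM in controls and at 40.9, 40.6 and 37.1 TPM in tau. The tau libraries all fell inside the control range, and the log2 change was -0.16, from -0.65 to 0.32 (limma, adjusted p = 0.956). It was -0.04 without control replicate 2 and -0.33 without control replicate 3. Within a library there were between 1.46 and 3.08 reads of *VAChT* for each read of *ChAT*. That ratio was 2.27 ± 0.716 in controls and 1.77 ± 0.488 in tau (SD, n = 3), with overlapping groups. It was computed after the values of both genes were seen and was not tested.

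*Ace* (FBgn0000024, 3R 13222951 to 13259517) encodes acetylcholinesterase, which splits acetylcholine in the synaptic cleft. It was at 51.6, 42.1 and 36.6 TPM in controls and at 24.8, 39.1 and 45.9 TPM in tau. Only tau replicate 1 was below the control range, and the log2 change was -0.27, from -0.84 to 0.30 (limma, adjusted p = 0.898). Without tau replicate 1 it was -0.02, without control replicate 1 it was -0.14, and without tau replicate 3 it was -0.45. The isoforms *Ace-RA* and *Ace-RB* carry the same coding sequence and differ in their untranslated ends, with a last exon of 5146 nt in *Ace-RA* and of 1529 nt in *Ace-RB*. *Ace-RA* was at 43.9, 23.7 and 22.7 TPM in controls and at 16.1, 30.1 and 22.4 TPM in tau. *Ace-RB* was at 3.29, 13.2 and 12.2 TPM in controls and at 7.31, 7.52 and 18.5 TPM in tau. Their fitted changes had opposite signs, -0.36 and 0.26 on the log2 scale, and neither passed the test (limma, adjusted p = 0.879 and 0.952).

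*Gad1* (FBgn0004516, 3L 4074077 to 4088744) encodes glutamate decarboxylase, which makes GABA from glutamate. It was at 114 TPM, 101 TPM and 117 TPM in controls and at 74.5 TPM, 112 TPM and 120 TPM in tau. These values rest on 248 reads in controls and 323 in tau, the most of any member. Only tau replicate 1 lay below the controls, with a Poisson interval of 55.5 to 98.0 TPM. The log2 change was -0.14, from -0.57 to 0.28 (limma, adjusted p = 0.956), and turned to 0.07 without tau replicate 1. The 4 isoforms of *Gad1* encode the same protein of 510 residues and differ in their 5′ exons. Most of the TPM was in *Gad1-RC*, which holds an extra exon of 101 nt (3L 4085429 to 4085529) and made up 73.2% ± 7.44 in controls and 72.7% ± 2.57 in tau (SD, n = 3). *Gad1-RA*, which lacks that exon, made up 23.5% ± 8.76 and 25.5% ± 4.42. The limma log2 changes of these isoforms were -0.15 and 0.02. The extra exon lies 2829 nt from the 3′ end of *Gad1-RC*, where reads start, and how many reads reached it is not recorded in TPM. Both shares are thus estimates, in which reads that fit several isoforms are divided among them.

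*ple* (FBgn0005626, 3L 6713356 to 6719525) encodes tyrosine hydroxylase, the first and rate-limiting enzyme of dopamine synthesis, and it had the largest fitted change of the 9 tested genes. It was at 20.9, 15.8 and 17.5 TPM in controls, from 19, 12 and 10 reads. In tau it was at 17.5, 52.6 and 38.1 TPM, from 12, 70 and 39 reads. Tau replicates 2 and 3 were above every control, whereas tau replicate 1 lay within the control range. The Poisson interval of tau replicate 2, from 41.0 to 66.5 TPM, lay above the highest upper bound of the controls, 32.6 TPM. That of tau replicate 3, from 27.1 to 52.0 TPM, did not.

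The fitted log2 change of *ple* was 0.84 ± 0.356 (SE), a fold change of 1.79 on log2(TPM + 1) with a 95% interval from 1.05 to 3.05. The unadjusted p was 0.0349 and the adjusted p was 0.534 (limma), so the change did not hold over the table. The adjusted p ranged from 0.0538 to 0.912 over the alternatives. Without tau replicate 1 the log2 change was 1.27 with an adjusted p of 0.0538, and without tau replicate 2 it was 0.51 with an adjusted p of 0.856. After rescaling to equal neuron markers the log2 change was 0.92 (adjusted p = 0.47). The groups of *ple* then did not overlap, and the share of all genes without overlap under that scaling was not computed.

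The 3 isoforms of *ple* fall into 2 coding forms. *ple-RB* and *ple-RC* contain a pair of additional exons of 93 nt (3L 6717334 to 6717426) and 120 nt (3L 6717553 to 6717672), have a coding sequence of 1737 nt and encode 579 residues. *ple-RA* lacks both, with 1524 nt and 508 residues. The longer form is known as the hypodermal form and the shorter as the neural form. *ple-RB* and *ple-RC* together held 99.3% ± 0.924 (SD, n = 3) of the gene's TPM in controls and 99.9% ± 0.0207 in tau. *ple-RA* was at 0.306 TPM or less in all 6 libraries, far under the floor of 3 reads. The counting method divides a read that fits several isoforms among them in proportion to their estimated levels. The additional exons lie 2278 and 2371 nt from the 3′ end of *ple-RB*, where reads start, and how many reads reached them is not recorded in TPM.

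*ple-RB* was at 18.6, 11.8 and 15.4 TPM in controls and at 11.7, 48.1 and 33.1 TPM in tau, with a log2 change of 0.79 (limma, adjusted p = 0.719). *ple-RC*, which ends further downstream, was at 2.20, 3.95 and 1.75 TPM in controls and at 5.84, 4.51 and 4.88 TPM in tau. Its groups did not overlap, but its 6 values rest on 1 to 6 reads each, and its mean of 3.85 TPM was below the filter. The mean was thus higher in tau for both isoforms of the longer form.

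**Figure D2:**
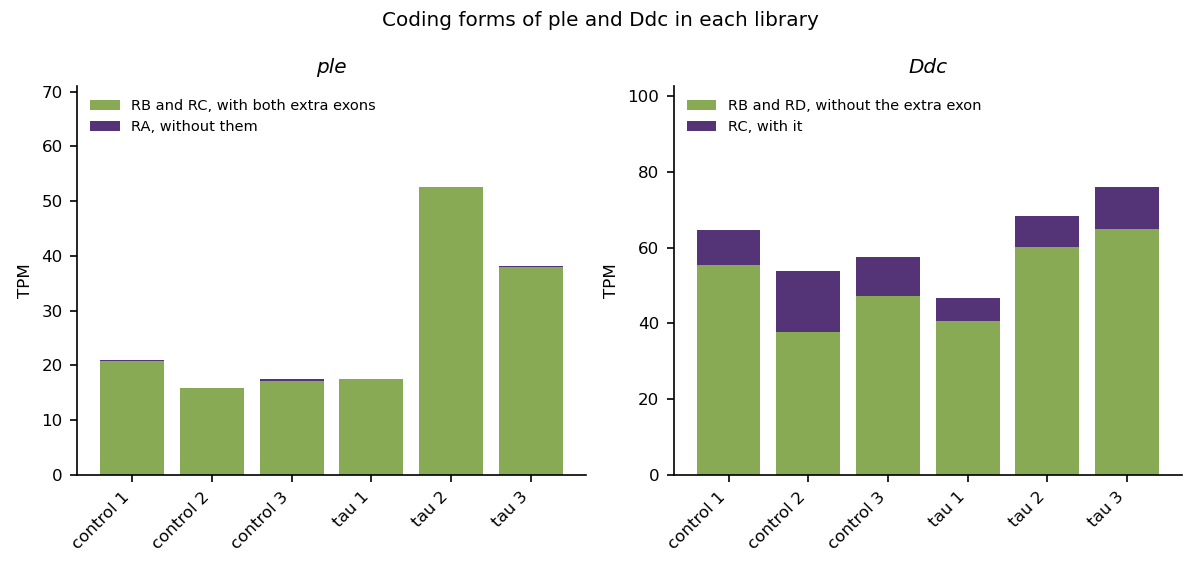
Stacked TPM (vertical axes, from 0) of the coding forms of *ple* (left) and *Ddc* (right) in each of the 6 libraries. Green marks *ple-RB* with *ple-RC* and *Ddc-RB* with *Ddc-RD*, and purple marks *ple-RA* and *Ddc-RC*. *Ddc-RD*, labelled as without the extra exon, holds the 156 nt of that exon inside its own exon of 1151 nt. *ple-RA* is at 0.306 TPM or less in every library, and *Ddc-RC* is between 6.24 and 16.4 TPM.

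*Ddc* (FBgn0000422, 2L 19116483 to 19120306) encodes dopa decarboxylase, which makes dopamine and serotonin from their precursors. It was at 64.8, 54.0 and 57.6 TPM in controls and at 46.8, 68.4 and 76.1 TPM in tau. Tau replicate 1 was below and tau replicates 2 and 3 above every control, and the log2 change was 0.09, from -0.38 to 0.56 (limma, adjusted p = 0.969). It was 0.30 without tau replicate 1 and -0.050 without tau replicate 3. For each read of *Ddc* there were 0.322, 0.293 and 0.303 reads of *ple* in controls and 0.375, 0.769 and 0.50 in tau. The ratio was higher in each tau library than in each control. The lowest tau value, in tau replicate 1, rests on 12 reads of *ple* and 32 of *Ddc*. The highest control value, in control replicate 1, rests on 19 and 59. How often the ratio of other gene pairs separates the libraries was not computed. The ratio does not depend on how libraries are scaled, was computed after the values of both genes were seen, and was not tested.

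The isoform *Ddc-RB* was the 1 tested isoform whose groups did not overlap. It was at 12.5, 16.4 and 18.3 TPM in controls and at 18.5, 19.7 and 22.6 TPM in tau, a gap of less than 1 read between control replicate 3 and tau replicate 1. The log2 change was 0.36, from -0.23 to 0.94 (limma, adjusted p = 0.837). The values of *Ddc-RB* are estimates that hold fractions of reads (10.5 reads in control replicate 3, 12.7 in tau replicate 1). In control replicate 2, *Ddc-RB* and *Ddc-RC* had the same value. The lack of overlap therefore rests in part on how shared reads were divided. After rescaling to equal neuron markers the groups of *Ddc-RB* overlapped. *Ddc-RD*, which encodes the same 475 residues and retains the first intron in an exon of 1151 nt, was at 42.8, 21.2 and 28.8 TPM in controls and at 22.0, 40.6 and 42.3 TPM in tau.

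*Ddc-RC* contains an additional exon of 156 nt (2L 19119319 to 19119474), encodes 510 residues and is known as the form of the nervous system. It was at 9.49, 16.4 and 10.5 TPM in controls and at 6.24, 8.12 and 11.3 TPM in tau, with a log2 change of -0.46 (limma, adjusted p = 0.858). Its share of the gene was 14.6%, 30.4% and 18.2% in controls and 13.3%, 11.9% and 14.8% in tau. The mean share differed by -7.72 percentage points, which an exact two-sided permutation test did not separate from the spread (p = 0.2, adjusted p = 0.99 over 11 shares). It was -3.08 points without control replicate 2 and -10.9 points without control replicate 1. *Ddc-RB* and *Ddc-RD* together were at 46.7 ± 8.86 TPM in controls and 55.2 ± 12.9 TPM in tau (SD, n = 3). The additional exon lies 1732 nt from the 3′ end, so the limit on reads that reach it holds here as well. Its 156 nt also lie inside the exon of 1151 nt of *Ddc-RD* (2L 19119156 to 19120306). Their presence in a read therefore does not by itself tell *Ddc-RC* from *Ddc-RD*.

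*Tdc2* (FBgn0050446, 2R 6684745 to 6689974) encodes the neuronal tyrosine decarboxylase, which makes tyramine. It was close to the limit of detection, with 3, 2 and 3 reads in controls and 1, 5 and 2 reads in tau. Its level was 3.29, 2.63 and 5.24 TPM in controls and 1.46, 3.76 and 1.95 TPM in tau. With 8 reads in each genotype its mean was below the filter of 5 TPM, and it was tested only in the fit with no filter, where it was not called (log2 change -0.50, from -1.60 to 0.61; limma, adjusted p = 0.897).

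*Tbh* (FBgn0010329, X 7995697 to 8027394) encodes tyramine beta-hydroxylase, which turns tyramine into octopamine. It was at 7.69, 9.21 and 6.98 TPM in controls and at 1.46, 13.5 and 14.6 TPM in tau. The tau libraries lay on both sides of the controls, with a single read in tau replicate 1 against 18 and 15 reads in the other two. The fitted log2 change was -0.11, from -1.49 to 1.26 (limma, adjusted p = 0.988), although the mean TPM was higher in tau (9.88 ± 7.31 against 7.96 ± 1.14, SD, n = 3). Its sign was positive with a pseudocount of 5 TPM, with limma-voom and without tau replicate 1 (0.76 on the log2 scale), so that no direction is given. Both isoforms of *Tbh* had identical values in each library and encode the same protein.

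*Vmat* (FBgn0260964, 2R 13513132 to 13534251) encodes the vesicular monoamine transporter, which fills vesicles with dopamine, serotonin, octopamine, tyramine and histamine. It was at 67.0 TPM, 75.0 TPM and 59.3 TPM in controls and at 46.8 TPM, 101 TPM and 82.9 TPM in tau. Again tau replicate 1 lay below and the other tau libraries above the controls, and the log2 change was 0.13, from -0.43 to 0.68 (limma, adjusted p = 0.964). It was 0.45 without tau replicate 1 and -0.10 without tau replicate 2. The isoform *Vmat-RD* ends its coding sequence differently from the other 3 and encodes 646 rather than 610 residues. Forms of the transporter with different C-terminal ends are known from aminergic neurons and from glia of the fly. *Vmat-RD* made up 36.5% ± 8.72 of the gene in controls and 34.6% ± 4.12 in tau (SD, n = 3; exact permutation p = 0.8, adjusted p = 0.99). In TPM it was at 24.9 ± 8.24 and 26.4 ± 8.94, and the other 3 isoforms summed to 42.2 ± 2.31 and 50.5 ± 19.6. The limma log2 changes of the 4 isoforms ran from 0.05 (*Vmat-RF*) and 0.07 (*Vmat-RD*) to 0.21 (*Vmat-RE*) and 0.41 (*Vmat-RC*), all with intervals that included 0. However, *Vmat-RE* and *Vmat-RF* had equal values in every library except tau replicate 3 (24.6 and 17.4 TPM). Their fitted changes therefore differ by that library alone. The exons that tell these isoforms apart lie 6996 nt from the 3′ end, where reads start.

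*DAT* (FBgn0034136, 2R 16558567 to 16565238) encodes the plasma membrane dopamine transporter, which takes released dopamine back into the neuron. It was at 2.20, 3.95 and 8.73 TPM in controls, from 2, 3 and 5 reads, and at 7.31, 7.52 and 6.83 TPM in tau, from 5, 10 and 7 reads. All tau libraries were above controls 1 and 2 and below control 3. The log2 change was 0.62 with an interval from -0.55 to 1.78 (limma, adjusted p = 0.878), and it ranged from 0.24 without control replicate 1 to 1.05 without control replicate 3. The 2 isoforms of *DAT* have the same exons and differ only in the coding sequence assigned to them, so reads cannot tell them apart and their values were equal in each library.

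**Figure D3:**
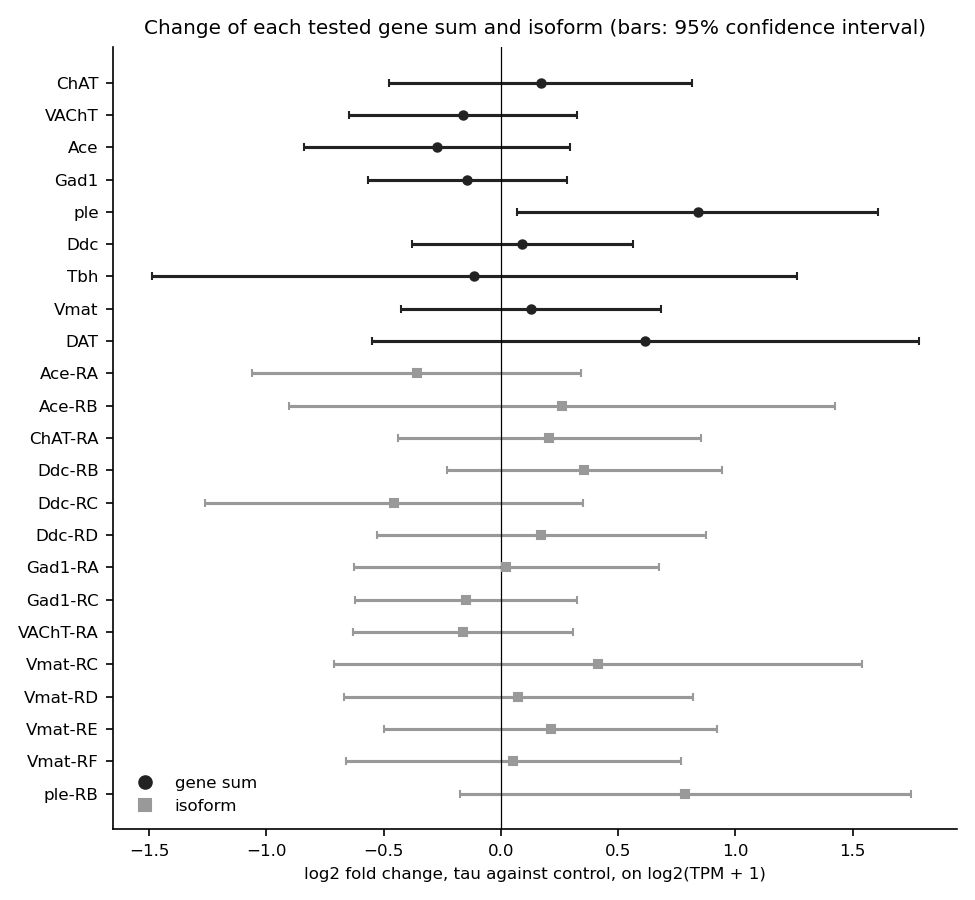
Fitted log2 change of tau against control on log2(TPM + 1) (horizontal axis, 0 marked by the vertical line) for the 9 tested gene sums (black circles) and 14 tested isoforms (grey squares), with limma 95% intervals not adjusted for the number of features. Every interval includes 0 except that of the *ple* gene sum, 0.07 to 1.61.

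The division of a gene's reads among its isoforms was compared for the 4 genes with a mean of at least 20 TPM and several isoforms over 5 TPM, *Ace*, *Ddc*, *Gad1* and *Vmat*. None of the 11 shares separated the genotypes in all libraries. Exact permutation p-values ran from 0.2 to 1 (adjusted p of 0.99 to 1), where 3 libraries against 3 cannot give less than 0.1. Shares of 1 gene sum to 100% and are not independent. The 11 member isoforms with a mean under 5 TPM had means from 0.0825 to 4.46 TPM and single values of at most 7.32 TPM. Of the 25 isoforms, 7 had the same value as another isoform of the whole table in each library. They were *DAT-RA* and *DAT-RB*, *Gad1-RB* and *Gad1-RD*, *Tbh-RB* and *Tbh-RC*, and *ChAT-RB*. *ChAT-RB*, with 1 read in all, matched only isoforms of other genes with such a read.

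Tau replicate 1 was the lowest of the 6 libraries in 6 of the 10 genes and the highest in 0. Its summed TPM over the members was 279, against 406, 374 and 361 in controls 1 to 3 and 466 and 448 in tau 2 and 3. The summed neuron markers were 1244, 1104 and 941 TPM in controls and 755, 1226 and 1169 TPM in tau, so this library was lowest there as well. The summed glia markers were 574, 628 and 475 TPM in controls and 479, 634 and 601 TPM in tau, with tau replicate 1 and control replicate 3 both low. Of the neuron markers 6 of 8 were tested and 0 were called by limma, with 0 at an unadjusted p under 0.05 and a median log2 change of -0.06. All 7 glia markers were tested, 0 were called, 0 had an unadjusted p under 0.05, and their median was 0.14. The part of cell content in the members' values was not tested.

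Without tau replicate 1, limma called 0 of the 9 member genes, with 2 at an unadjusted p under 0.05 where 8.2% of all tested genes were, and their median log2 change was 0.35 beside 0.03 over all genes. The groups then did not overlap in 4 of the 9 (*ple*, *Ddc*, *Tbh* and *Vmat*, all higher in tau), where 23.9% of all tested genes did not overlap. Without both tau replicate 1 and control replicate 3, limma called 0 member genes with a lowest adjusted p of 0.219, and 6 of the 9 did not overlap against 35.1% of all tested genes. Of these, *DAT*, *Ddc*, *Tbh*, *Vmat* and *ple* were higher in tau and *VAChT* was lower. The joint removal was chosen after the data were seen.

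**Figure D4:**
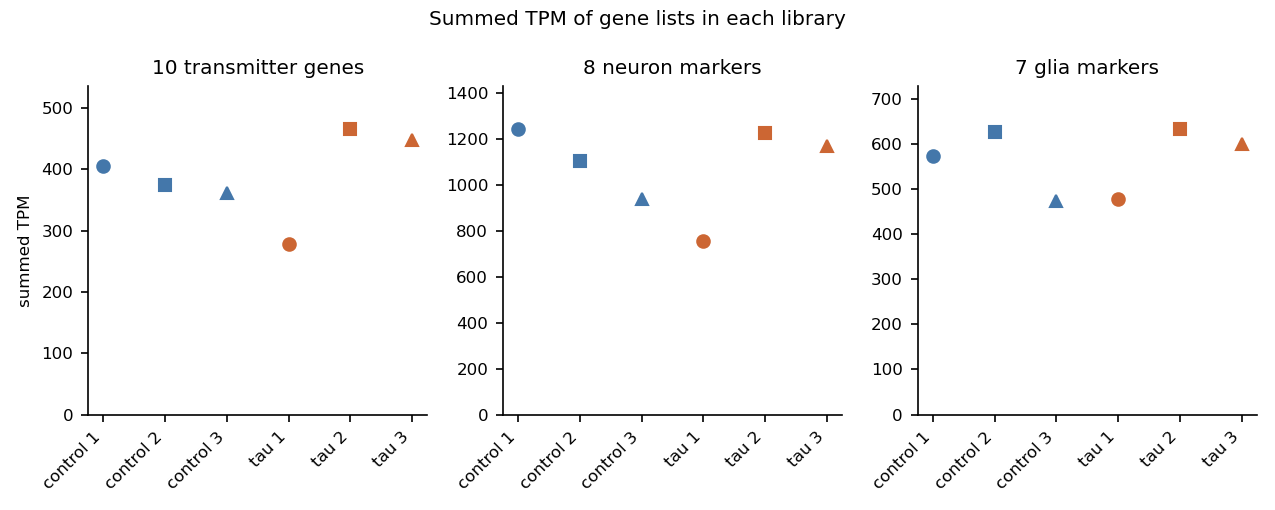
Summed TPM (vertical axes, from 0) of the 10 transmitter genes, 8 neuron markers and 7 glia markers in each library, controls in blue and tau in orange. Tau replicate 1 is the lowest library for the transmitter genes (279) and the neuron markers (755), and control replicate 3 is the lowest for the glia markers (475).

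Other genes of the same pathways were read from the same fit, as 4 lists chosen by function. Of the 33 listed genes 31 were tested, and limma called 0 in either direction, with 3 at an unadjusted p under 0.05 (8.15% of all tested genes). The fitted change was upward in 20 of the 31, and their median was 0.12 on the log2 scale beside -0.04 over all genes. The groups did not overlap in 3 of them, *ine* and *LOVIT* (higher in tau) and *Hn* (lower in tau), against 13.0% of all tested genes. Without tau replicate 1, 0 were called, 7 had an unadjusted p under 0.05 (8.2% of all tested genes), 14 did not overlap (23.9%), and the median was 0.26. Without control replicate 3, 0 were called, 2 had an unadjusted p under 0.05 (6.32%), 6 did not overlap (21.8%), and the median was 0.04. Without both, 0 were called, 5 had an unadjusted p under 0.05 (6.74%), 17 did not overlap (35.1%), and the median was 0.19. *amd*, a relative of *Ddc*, and *prt*, a vesicular transporter gene of the mushroom body, were under 5 TPM on average and so below the filter. *prt* was at 4.39, 7.90 and 5.24 TPM in controls and at 2.92, 3.01 and 2.93 TPM in tau. It was thus lower in tau without overlap, at values near the detection floor.

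For acetylcholine, none of the 4 genes *ChT*, *Ctl1*, *Ctl2* and *ATPCL*, which supply choline or acetyl-CoA, passed the test, and their median was -0.21. The smallest value was that of *ChT*, a choline transporter gene, at -1.30 with an interval from -3.02 to 0.43. *ChT* was at 12.6, 13.2 and 10.5 TPM in controls and at 0, 14.3 and 8.78 TPM in tau, and tau replicate 1 was the 1 library with no read of it. The largest was *Ctl1*, a choline transporter-like gene, at 0.47 (25.7 ± 8.94 TPM in controls, 35.8 ± 12.7 TPM in tau, SD, n = 3).

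For GABA and glutamate, none of 9 genes passed, with a median of 0.09. The largest value was that of *Gs1*, a glutamine synthetase gene, at 0.41 (262 ± 45.8 TPM in controls, 347 ± 45.6 TPM in tau, SD, n = 3; limma, adjusted p = 0.433), and the smallest that of *Eaat1*, a glial glutamate transporter gene, at -0.13. *VGAT*, which loads GABA into vesicles, was at 19.6 ± 3.00 TPM in controls and 19.9 ± 3.85 in tau. *VGlut*, the vesicular glutamate transporter gene, was at 34.9 ± 4.60 and 37.7 ± 16.2 TPM. Both had log2 changes under 0.02 in size and were named after their values were seen.

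For the synthesis of amines and of tetrahydrobiopterin, the cofactor of *ple*, none of 10 tested genes passed, with a median of 0.18. The largest value was that of *Sptr*, a sepiapterin reductase gene of cofactor synthesis, at 0.78 (7.96 ± 2.40 TPM in controls, 15.0 ± 6.28 TPM in tau, SD, n = 3; limma, adjusted p = 0.727). The smallest was that of *Tdc1*, the non-neuronal tyrosine decarboxylase gene, at -0.88 (11.9 ± 2.55 and 6.69 ± 4.24 TPM; adjusted p = 0.722). *Hn*, the phenylalanine hydroxylase gene, was at 421, 449 and 454 TPM in controls and at 384, 376 and 370 TPM in tau, without overlap, with a log2 change of -0.23 (limma, adjusted p = 0.653). *Hn* was named after its values were seen. *Pu*, which encodes the first enzyme of cofactor synthesis, was at 70.1 ± 7.32 and 79.3 ± 11.8 TPM, and was named after its values were seen.

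For amine transport and breakdown, none of 8 tested genes passed, with a median of 0.19. The largest value was that of *ine*, a transporter-like gene that acts in histamine recycling in the fly eye, at 0.67 (limma, adjusted p = 0.383). *ine* was at 31.8, 26.3 and 22.7 TPM in controls and at 36.5, 49.6 and 43.9 TPM in tau, without overlap. *LOVIT*, a vesicular transporter gene of photoreceptors, was also without overlap, at 48.0 ± 8.36 and 70.3 ± 5.01 TPM (log2 change 0.56, adjusted p = 0.398), and was named after its values were seen. The photoreceptor markers had a median of 0.26, with 1 of 7 called, higher in tau (*Rh4*, 0.59, adjusted p = 0.00825), where 1.08% of all tested genes were called. The opsin genes *ninaE*, *Rh3* and *Rh5* had values of 0.33, 0.26 and 0.35, and *trp*, *norpA* and *Arr2* of -0.08, -0.06 and -0.03. The part of these cells in the values of *ine* and *LOVIT* was not tested. The smallest value was that of *SerT*, the serotonin transporter gene, at -0.29 (9.34 ± 2.41 and 7.56 ± 2.32 TPM; limma, adjusted p = 0.958).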

How the data were processed

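The members were the 10 genes named in the rule, looked up by symbol and identifier, and members, gene lists and the genes named from each list (those with the largest and the smallest change) were chosen with earlier results of these data known. Basecalling by the authors used Guppy (v5.1.12). They required a read quality of 9 or more and mapped reads by minimap2 to FlyBase 6.43 transcripts with up to 10 secondary alignments, and the TPM values that the authors deposited are NanoCount (v1.0.0) estimates per isoform. The authors' own comparison in the same table (DESeq2 mean signal, log2 fold change, its error, test statistic and p-values) was not used, nor were short-read libraries, which were not analysed here. *Rh6* was not analysed here.

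Isoform TPM was summed per gene, and rows without a gene ID (0.0510% to 0.0646% of TPM) were left out of the sums. Dividing by the TPM of 1 read gave whole reads, within 0.01, for 94.8% to 95.4% of gene sums but 41.7% to 44.4% of isoform values, so no count test was the main one. Features with a mean of at least 5 TPM were fitted on log2(TPM + 1), which understates the change of low genes, with limma (v3.58.1, R v4.3.3; eBayes with trend, two-sided) on all 6 libraries without covariates, and p-values were adjusted by Benjamini-Hochberg over the table. Shares were compared by exact permutation. The fit was tested on simulated data. Replicates were biological replicates by the study's methods. Alternatives covered pseudocount, filter, scaling, trend, replicate block and each library left out, with limma-voom on recovered reads and the joint removal of 2 libraries added after the data were seen. Coordinates and exons came from the Ensembl release 115 annotation of the same Release 6 assembly (dm6). Other steps ran in Python (v3.11.15) with scipy (v1.17.1), pandas (v2.3.3), numpy (v2.4.6) and, for plots, matplotlib (v3.10.9).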

Additional observations from a re-analysis of the deposited data

How the results depend on the processing

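No member gene or isoform was called under any alternative, and the sign of the change held under each alternative that tested them for 5 of 9 genes (*Ace*, *ChAT*, *DAT*, *VAChT* and *ple*) and 7 of 14 isoforms (*Ace-RA*, *ChAT-RA*, *Ddc-RB*, *Ddc-RC*, *VAChT-RA*, *Vmat-RC* and *ple-RB*). The filter of 20 TPM tested 7 of the genes and 9 of the isoforms. *Tbh* turned to 0.041 with a pseudocount of 5 TPM and to 0.16 with limma-voom.

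The number of features called in the whole table depended on the settings, and the cause was not tested. Against 97 isoforms, 0 were called with no filter, 19 with neuron marker scaling and 5 without an abundance trend. Against 97 genes, these settings called 42, 41 and 4. Called genes were higher in tau in 57 of 97, and in 29 of 41 with neuron marker scaling. With libraries left out, 14 to 99 isoforms and 11 to 100 genes were called, and 0 to 3 of the 11 shares did not overlap. The 3 came without control replicate 3, where the TPM of 22.6% of all tested isoforms did not overlap. Shares of other genes were not computed for comparison.

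With libraries left out, the log2 change ran from -0.58 to 0.76 for *Tbh*, -0.050 to 0.30 for *Ddc*, -0.27 to 0.11 for *Gad1* and -0.10 to 0.45 for *Vmat*. For isoforms it ran from -0.30 to 0.73 (*Ace-RB*), -0.062 to 0.47 (*Ddc-RD*), -0.22 to 0.41 (*Gad1-RA*), -0.30 to 0.091 (*Gad1-RC*), -0.22 to 0.38 (*Vmat-RD*), -0.052 to 0.56 (*Vmat-RE*) and -0.29 to 0.32 (*Vmat-RF*). In percentage points, the difference in share ran from -10.9 to 4.44 (*Ace-RA*), -2.60 to 11.3 (*Ace-RB*), -4.05 to 9.33 (*Ddc-RD*), -2.09 to 6.62 (*Gad1-RA*), -4.78 to 1.66 (*Gad1-RC*), -0.52 to 3.61 (*Vmat-RC*), -6.95 to 0.871 (*Vmat-RD*) and -3.56 to 1.82 (*Vmat-RF*).

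Libraries with the same replicate number did not deviate together (r over genes of -0.0027, 0.0651 and -0.0721). The replicate block called 100 isoforms and 77 genes in the table and 0 members. Depth limits *Tdc2*, *DAT* and *Tbh*, with 8 to 34 reads a genotype, and all isoforms of under 5 TPM.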
